A study of Saccharomyces cerevisiae with 15 samples.

Results

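The respiratory chain and the ATP synthase of Saccharomyces cerevisiae were followed here through 37 nuclear genes, which were chosen by name as the probe sets of the YG_S98 array annotated with one of them. The array names 5656 genes by a probe set with 1 symbol. All 37 had such a probe set, and all 37 lay among the 6956 of 9335 probe sets that passed the filter on dim signals. They comprise 3 NADH dehydrogenases, 4 subunits of complex II, 9 of complex III, the cytochrome c gene CYC1, 8 subunits of complex IV and 12 of the ATP synthase.

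Every culture was of a strain without PMI40 in the background CEN.PK113-7A, grown with aeration in mineral medium that held 15 g/L glucose, and sampled 6 h after inoculation. The initial mannose was 0.75, 1, 1.5, 3 or 5 g/L, with 3 arrays of total RNA for each concentration. PMI40 encodes the isomerase that makes mannose 6-phosphate from a glycolytic intermediate, so a strain without it takes its mannose from the medium. No parent strain was among the arrays, and every group carried the deletion and was given the same glucose in the medium. How much glucose was left at 6 h is not known here. It is not stated if the 3 arrays of a group stem from 3 cultures, and p-values therefore cover the scatter from array to array alone.

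Budding yeast has no proton-pumping complex I. Electrons from NADH enter the chain through single-protein dehydrogenases, NDI1 on the matrix side of the inner membrane and NDE1 and NDE2 on its outer side. From there, and from succinate through complex II, they pass over coenzyme Q to complex III, by cytochrome c to complex IV and on to oxygen, and the proton gradient drives the ATP synthase. Glucose is known to repress many of these genes, and the HAP2/3/4/5 activator, whose activity follows HAP4, is known to raise them when glucose is low. The promoters and proteins of the genes were not used here.

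Arrays of a concentration correlated at 0.957 to 0.982 across probe sets. Median signals were lower at 0.75 g/L, 20.1 to 22.1, than elsewhere, 23.3 to 27.0, and the 3'/5' signal ratio of ACT1, a measure of RNA integrity, was 1.37 to 2.36. That of SPT15 was 4.19 to 5.26 at 0.75 g/L, 2.81 to 4.16 at 1 g/L, 3.89 to 4.38 at 1.5 g/L, 3.69 to 3.98 at 3 g/L and 4.44 to 6.90 at 5 g/L, so it moved with the concentrations, and its part in the results was not tested. The probe set of PMI40 gave 113.1 to 270 over the arrays. Its place relative to the deletion is unknown here, so it does not check the deletion. Fluidics runs were inferred from the station and session in the array records. Run A comprised all 0.75 g/L arrays with replicate 1 at 3 g/L, run B replicates 2 and 3 at 3 g/L with replicates 1 and 2 at 5 g/L, run C replicate 3 at 5 g/L with the 3 arrays at 1.5 g/L, and run D the 3 arrays at 1 g/L. The records of the 4 arrays of run A and of replicate 2 at 5 g/L describe a fluidics run that was not completed. Run D held no other concentration, so in every comparison with 1 g/L (against 0.75, 1.5 or 5 g/L) the run and the concentration cannot be told apart. The arrays had been scaled to a common mean, so a change shared by all messages of the cell cannot be seen in them.

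On the signals as deposited, most of the structural genes kept nearly the same level from 0.75 to 5 g/L mannose. Between the concentration with the highest mean and the one with the lowest, 27 of the 37 genes differed by less than 1.5-fold (73.0%), against 29.6% of all probe sets tested and 29.8% of those with a mean signal of 100 or more. The median of that range was 1.31-fold for the 37 genes and 1.73-fold for all probe sets. It stayed under 1.5-fold for 12 of 12 ATP synthase genes, 7 of 8 of complex IV, 6 of 9 of complex III, 1 of 4 of complex II and none of the 3 NADH dehydrogenases. The highest mean was at 0.75 g/L for 21 of the 37 genes (56.8%), against 24.5% of all probe sets. QCR8, whose signals lie near background, is counted in these shares. These shares describe the arrays and carry no test. They were computed on the signals as deposited only, and the levels depend on the scaling. After scaling the arrays to a common median, the median difference of the 37 genes for 5 against 0.75 g/L was -0.49 log2, with 34 below 0. That of all probe sets was then -0.15.

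**Figure D1:**
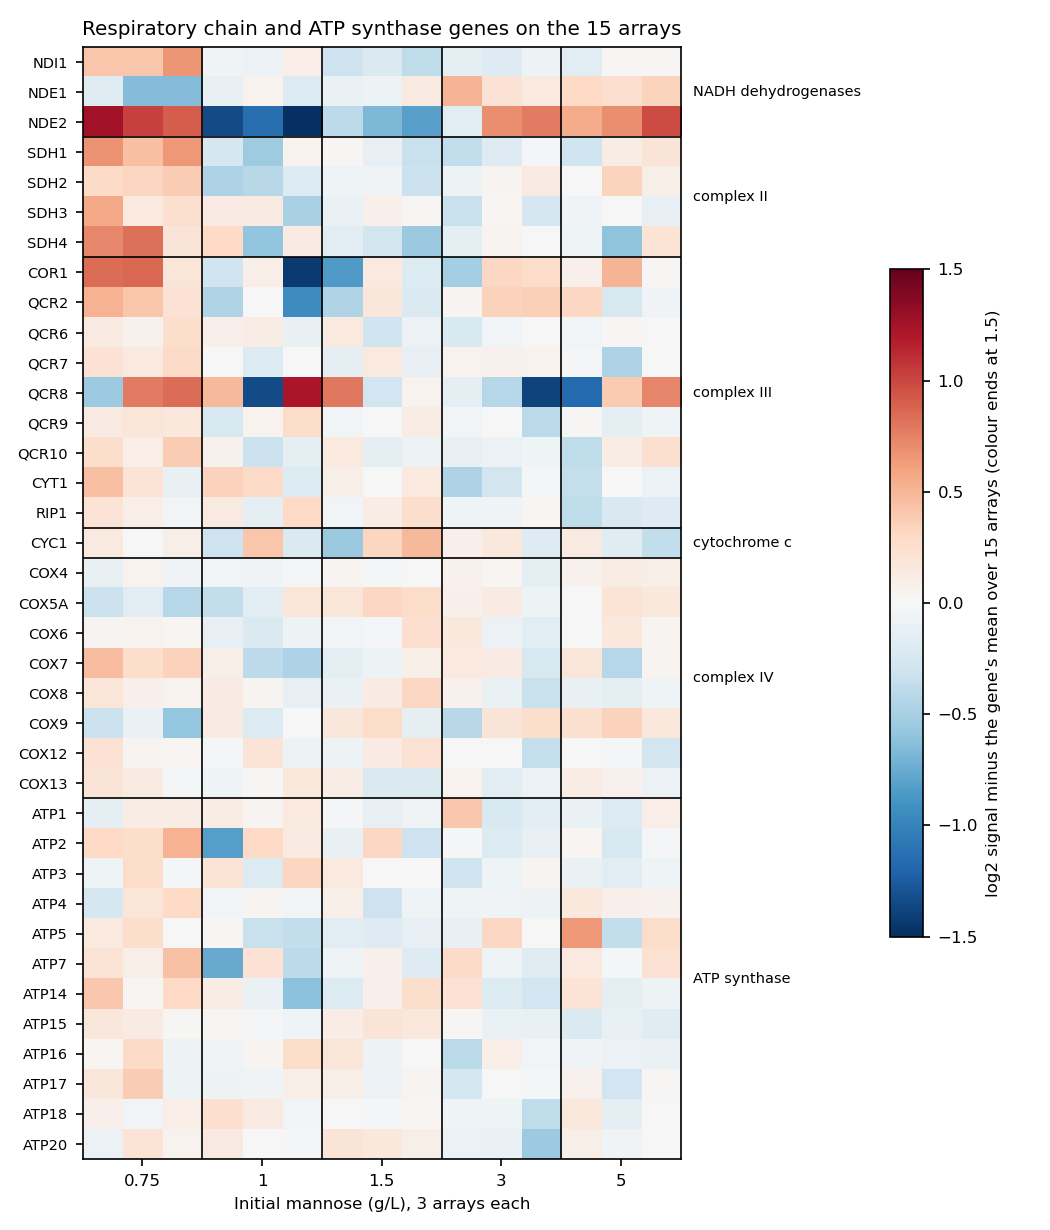
Each cell is the log2 signal of a gene (rows, grouped by complex) on an array (columns, 3 for each initial mannose concentration in g/L) minus the mean of that gene over the 15 arrays, with colours ending at 1.5. NDE2 and the complex II genes stand high on the 0.75 g/L arrays and NDE2 low at 1 g/L, while the ATP synthase rows are pale; QCR8 is patchy because its signals lie near background.

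The slope of log2 signal on log2 mannose over the 15 arrays asks which genes follow the dose. In limma's fit across all 6956 probe sets, 23.7% passed an adjusted p below 0.05, 14.3% rising and 9.34% falling. Of the 37 genes 1 rose, NDE1, and 0 fell, while 4 had an unadjusted p below 0.05 (NDE1, CYT1, RIP1 and COX9). The median slope of the 37 was -0.05 log2 for each doubling of mannose, with 25 below 0 and 12 above, and that of all probe sets was 0.02. Both medians changed sign without the 0.75 g/L arrays, to 0.006 for the 37 (20 above 0, 17 below) and -0.014 for all probe sets. The same held without the arrays of uncompleted fluidics runs, at 0.016 (21 above 0, 16 below) and -0.021. Among probe sets with a mean signal of 100 or more, a level that 34 of the 37 genes reached, 30.2% passed. After scaling to the median, a different normalization that lowers the slopes of all probe sets by 0.08, 6 of the 37 genes fell (CYT1, RIP1, COX12, ATP3, ATP15 and ATP16). The 95% intervals of the single slopes are drawn in the plot of slopes. For the ATP synthase they ran from -0.28 to 0.24 over all 12 genes, so that a change of more than 0.28 log2 per doubling lies outside the interval of every ATP synthase gene.

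**Figure D2:**
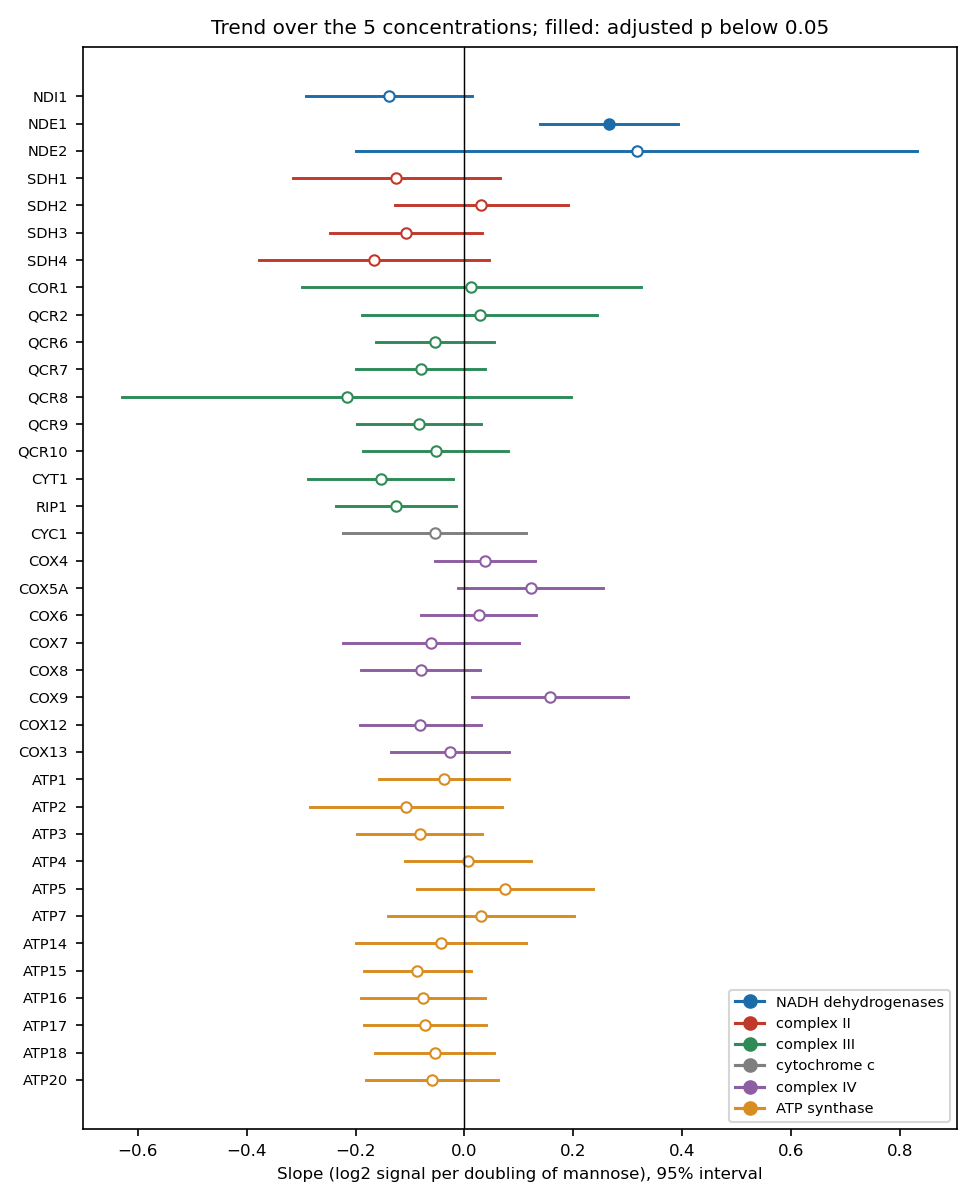
Slopes of log2 signal per doubling of initial mannose over 15 arrays (x axis) for each of the 37 genes (y axis), with 95% intervals and colours by complex; a filled point marks an adjusted p below 0.05. NDE1 alone is filled, at 0.27, and the intervals of most others include 0.

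A slope misses changes that turn back, so the 5 concentrations were also compared by an F-test. Any difference among them passed for 6 of the 37 genes, NDI1, NDE1, NDE2, SDH1, SDH2 and QCR2, and for 46.6% of all probe sets (60.8% of those at 100 or more). QCR2, with an adjusted p of 0.0483, is the least certain of these, since it did not pass when any of 10 single arrays was left out, among them each 0.75 g/L array (adjusted p up to 0.114). NDE1 did not pass after median scaling (adjusted p = 0.0909), nor SDH1 without 0.75 g/L replicate 1 (adjusted p = 0.0545). Without the 5 arrays of uncompleted fluidics runs, which include all those at 0.75 g/L, only NDE2 passed.

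Among steps between neighbouring concentrations, that from 0.75 to 1 g/L held all calls of members, and also most calls among all probe sets. It sets run A against run D, so the run and the concentration cannot be told apart. At 1 g/L 7 genes (18.9%) were lower, NDI1, NDE2, SDH1, SDH2, COR1, QCR2 and COX7, and 0 were higher. In either direction 11 had an unadjusted p below 0.05. Of all probe sets 37.3% differed, 15.3% lower and 22.1% higher, and of those at a signal of 100 or more 47.6%. The median difference of the 37 genes was -0.13 log2, with 29 below 0, and that of all probe sets was 0.11. Relative to all probe sets the 37 genes lay 0.24 lower as deposited and 0.16 lower after quantile normalization. Median scaling moves the median of all probe sets in this comparison by -0.20 and quantile normalization by -0.11.

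Between neighbouring concentrations above 1 g/L no member passed. By limma, 0 of 37 passed from 1 to 1.5 g/L (3 at an unadjusted p below 0.05, NDI1, NDE2 and COX5A), where 0.403% of all probe sets did (0.388% higher, 0.0144% lower, and 0.917% of those at 100 or more). From 1.5 to 3 g/L 0 passed (2 unadjusted, NDE2 and ATP20), against 4.1% of all (2.56% higher, 1.54% lower, and 6.46% of those at 100 or more). From 3 to 5 g/L 0 passed (0 unadjusted), against 0.992% (0.877% higher, 0.115% lower, and 1.7% of those at 100 or more). Over the wider span from 1 to 5 g/L 2 members were higher, NDE2 and SDH2, and 0 were lower, with 4 unadjusted. There 23.9% of all probe sets passed, 13.5% higher and 10.4% lower, and 37.8% of those at 100 or more.

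The ends of the series, 5 against 0.75 g/L, differed in 6 members. NDE1, COX5A and COX9 were higher at 5 g/L, and NDI1, SDH1 and SDH4 were lower, while 10 had an unadjusted p below 0.05 and 35.6% of all probe sets passed (22.2% higher, 13.3% lower, and 41.9% of those at 100 or more). The median of the 37 was -0.21 log2 with 30 below 0, that of all probe sets 0.13. A fixed block for the fluidics run ties the 0.75 g/L arrays to the other concentrations only through replicate 1 at 3 g/L. Every blocked value for 5 against 0.75 g/L therefore rests on that 1 array. With this block 2 members passed, NDE1 higher and NDE2 lower at 5 g/L (log2 -1.34, limma adjusted p = 0.0181). After median scaling, which moves the median of all probe sets by -0.27, 20 did, 19 of them lower and NDE1 higher. Both comparisons with 0.75 g/L share its 3 arrays, as both comparisons with 1 g/L share theirs.

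The NADH dehydrogenases went separate ways. NDI1 (YML120C), the matrix-facing enzyme, gave 1315.1, 1321.7 and 1568.1 at 0.75 g/L. At 1 g/L it gave 953.3, 933.2 and 1056.4, and at 1.5 g/L 799.5, 848.1 and 755.8. At 3 g/L it gave 892, 860.9 and 936.9, and at 5 g/L 883.4, 998 and 1002.9. Each 0.75 g/L array stood above all 12 others, whose lowest were the 3 at 1.5 g/L. NDI1 was 1.43-fold lower at 1 than at 0.75 g/L (log2 -0.51 ± 0.13, SE; limma adjusted p = 0.00733) and 1.46-fold lower at 5 g/L (adjusted p = 0.00532). Within run A, replicate 1 at 3 g/L lay 0.65 log2 below the 0.75 g/L arrays of the same run, so NDI1 was lower in the same run as well. Its 5 against 0.75 g/L difference was -0.58 with the run as a block, which no longer passed (adjusted p = 0.169).

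NDE1 (YMR145C), the major dehydrogenase of cytosolic NADH, moved the other way. Its signals were 1126.2, 810.4 and 815.2 at 0.75 g/L, then 1180.3, 1319 and 1110.6 at 1 g/L. At 1.5 g/L they were 1192.7, 1214.8 and 1405.6. They reached 1820.1, 1488.3 and 1414.3 at 3 g/L, followed by 1574.3, 1516.1 and 1611.2 at 5 g/L. Every array at 3 and 5 g/L was above every array at the lower concentrations, while 0.75 and 1 g/L overlapped. These arrays are given because NDE1 passed, a choice made after its values were seen. NDE1 rose by 0.27 ± 0.06 log2 for each doubling (SE; limma adjusted p = 0.00503), and the slope passed in 27 of 27 other settings, at 0.35 ± 0.09 with the run as a block (adjusted p = 0.0266) and 0.19 without the 0.75 g/L arrays (adjusted p = 0.0338). In the blocked fit the 1 g/L arrays add nothing to the slope. The 0.75 g/L arrays enter it only against 3 g/L replicate 1, the brightest array of NDE1, whose fluidics run was not completed. Within runs NDE1 differed by 1.01 log2 in run A (3 against 0.75 g/L), 0.09 in run B (5 against 3 g/L) and 0.35 in run C (5 against 1.5 g/L). From 917 ± 181 (SD, n = 3) at 0.75 g/L to 1567 ± 48.0 at 5 g/L the difference was 1.73-fold (adjusted p = 0.00165).

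NDE2 (YDL085W), the second external dehydrogenase, was lowest at 1 g/L, the only concentration of run D. It gave 85.8, 73.1 and 67.4 at 0.75 g/L and then 14.2, 16.4 and 6.9 at 1 g/L. At 1.5 g/L it gave 27.3, 22.6 and 20.4. By 3 g/L the signals were 32, 58.4 and 61.6, and at 5 g/L 52.9, 58.3 and 70.5. The 1 g/L arrays were the lowest, near the background of 13.5 that control probe sets gave and in 1 case under it, and those at 1.5 g/L overlapped no other group. NDE2 was 6.41-fold lower at 1 than at 0.75 g/L (log2 -2.68 ± 0.31; limma adjusted p = 1.1e-05) and 5.13-fold higher at 5 than at 1 g/L (adjusted p = 9e-05). These folds rest in part on the 1 g/L array under background, replicate 3, and without it the differences were -2.30 (adjusted p = 2.53e-05) and 1.98 log2 (adjusted p = 0.000218). Its slope over the 5 concentrations did not pass (adjusted p = 0.378), while without the 0.75 g/L arrays it rose by 1.01 log2 per doubling (adjusted p = 1e-04). Inside run A, 3 g/L replicate 1 was 1.23 log2 below the 0.75 g/L arrays, and inside run C the 5 g/L array was 1.60 log2 above those at 1.5 g/L.

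**Figure D3:**
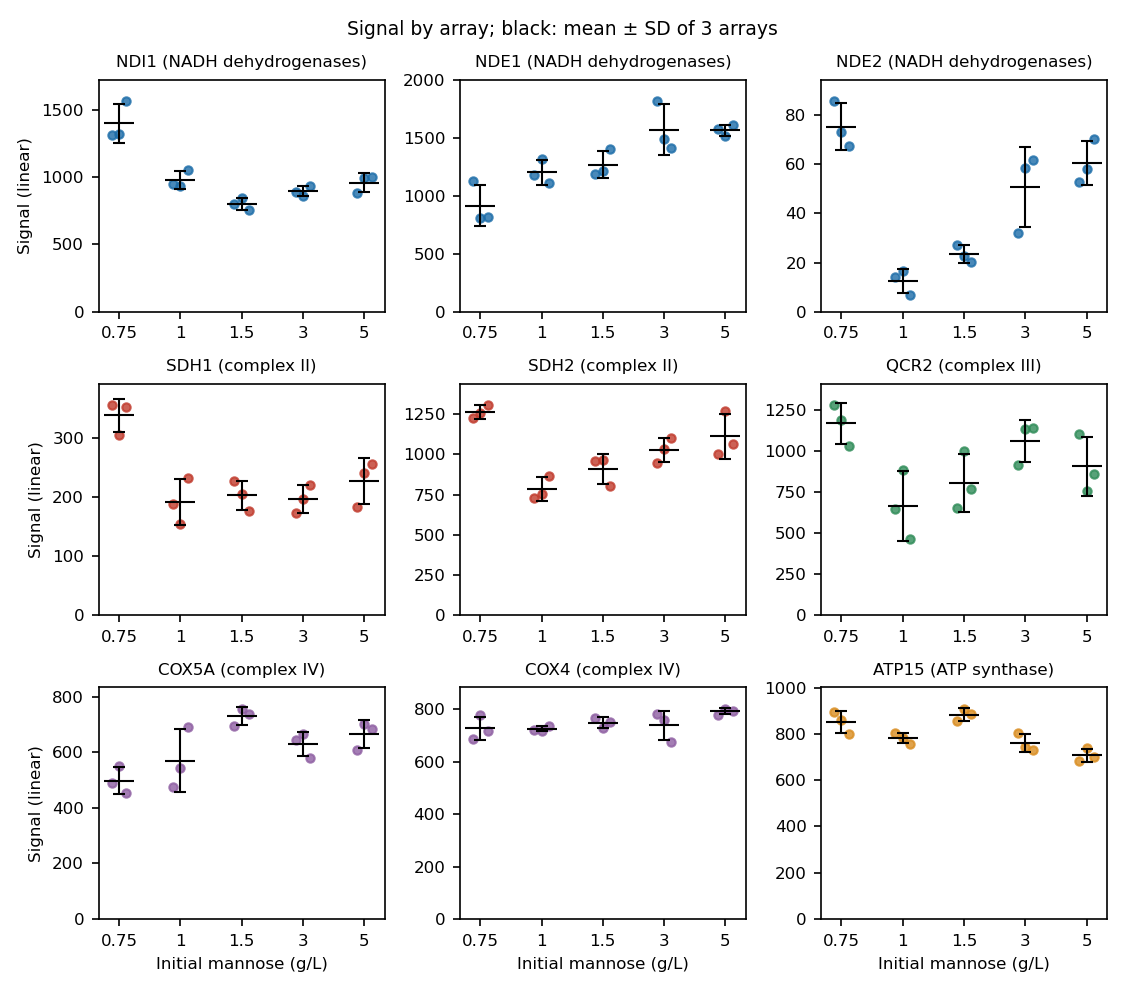
Signals on a linear scale from 0 (y axis) against initial mannose in g/L (x axis) for 9 genes, with a point for each array and the mean ± SD of 3 in black; the range of the y axis differs between panels. NDI1, SDH1 and SDH2 are highest at 0.75 g/L, NDE1 climbs from 917 to 1567, NDE2 dips to 12.5 at 1 g/L, and the means of COX4 stay between 726 and 793.

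Complex II, succinate dehydrogenase, takes electrons from the tricarboxylic acid cycle, and all 4 of its subunit genes had their highest mean at 0.75 g/L. SDH1, the flavoprotein, gave 355.9, 305.4 and 352.7 at 0.75 g/L, then 188.7, 154.2 and 231.4 at 1 g/L. At the higher concentrations it ranged from 173.1 to 256.6. No array at another concentration reached the lowest at 0.75 g/L. SDH1 was 1.79-fold lower at 1 g/L (log2 -0.84 ± 0.19; limma adjusted p = 0.00295) and 1.50-fold lower at 5 g/L (adjusted p = 0.0246), the latter not passing with the run as a block (log2 -0.95, adjusted p = 0.0697) or without 0.75 g/L replicate 1 (0.076) or 3 (0.0698) or 5 g/L replicate 1 (0.112).

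SDH2, the iron-sulfur subunit, was lowest at 1 g/L, the only concentration of run D. Its signals were 1223.9, 1254.5 and 1308 at 0.75 g/L, followed by 727.7, 753 and 868.1 at 1 g/L. They were 958.7, 967.4 and 800.9 at 1.5 g/L, 947, 1032.9 and 1100 at 3 g/L, then 1000.9, 1268.1 and 1067 at 5 g/L. The 0.75 and 1 g/L arrays did not overlap, and the group means climbed from 783 at 1 g/L to 1112 at 5 g/L. SDH2 was 1.62-fold lower at 1 than at 0.75 g/L (log2 -0.69 ± 0.14; limma adjusted p = 0.0018). It was 1.42-fold higher at 5 than at 1 g/L (adjusted p = 0.0209), which did not pass without 5 g/L replicate 2 (adjusted p = 0.0843), 1 g/L replicate 1 (0.0695) or 1 g/L replicate 2 (0.0587).

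The membrane anchors of complex II, SDH3 and SDH4, were noisier. SDH4 gave 864.7, 928.7 and 596.8 at 0.75 g/L, followed by 641.2, 346.6 and 568.9 at 1 g/L. At 5 g/L it gave 499.4, 345.1 and 600.5, while the arrays at 1.5 and 3 g/L lay between 354.3 and 539.8. The third 0.75 g/L array overlapped the 1 and 5 g/L groups, and the first and the second did not. SDH4 was 1.67-fold lower at 5 than at 0.75 g/L (log2 -0.74 ± 0.26; limma adjusted p = 0.0378), a call that did not pass when 0.75 g/L replicate 1 or 2, or 5 g/L replicate 1 or 2, was left out (adjusted p 0.0651 to 0.16) or with the run as a block (adjusted p = 0.101). SDH3 went from 586 ± 94.2 at 0.75 g/L to 450 ± 20.6 at 5 g/L, which did not pass (adjusted p = 0.136).

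In complex III, which passes electrons from coenzyme Q to cytochrome c, the core subunits QCR2 and COR1 were lower at 1 than at 0.75 g/L. At 5 g/L all 9 genes were below their 0.75 g/L level, with a median of -0.36 log2, and 0 passed by limma (2 unadjusted), while after median scaling 7 did. QCR8 is counted among the 9, but its signals lie near background and its direction cannot be read. QCR2 gave 1281.5, 1190.3 and 1033.5 at 0.75 g/L, then 649.9, 887.6 and 464.9 at 1 g/L. It gave 651.9, 999.2 and 770.1 at 1.5 g/L. At 3 g/L it was at 913.9, 1133.4 and 1138.2, and at 5 g/L at 1106.2, 754.1 and 857.5. The 0.75 g/L arrays lay above those at 1 and 1.5 g/L, and those at 3 and 5 g/L overlapped them. QCR2 was 1.80-fold lower at 1 than at 0.75 g/L (log2 -0.85 ± 0.24; limma adjusted p = 0.0116), and without 1 g/L replicate 3, its lowest array, 0.62 log2 lower (adjusted p = 0.0574).

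COR1, the other core subunit, gave 347, 352.7 and 220.7 at 0.75 g/L, followed by 158.2, 208.7 and 71.6 at 1 g/L. Its 9 arrays at higher concentrations ran from 107.6 to 276.3. The 0.75 g/L arrays did not overlap those at 1 or 1.5 g/L, though the lowest, 220.7, was close to them. The difference of 2.25-fold (log2 -1.17 ± 0.38; limma adjusted p = 0.0248) did not pass without 0.75 g/L replicate 1 (adjusted p = 0.0774), 0.75 g/L replicate 2 (0.0809) or 1 g/L replicate 3 (log2 -0.72, adjusted p = 0.115). COR1 had been at 71.6 on that last array, the one on which QCR2 was also lowest.

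RIP1, the Rieske iron-sulfur protein, gave 1352.5, 1258.6 and 1141 at 0.75 g/L, then 1282.1, 1064.6 and 1435.8 at 1 g/L, so the groups overlapped. At 1.5 g/L it gave 1136.2, 1270.6 and 1411.1. It gave 1118.4, 1128.6 and 1183.9 at 3 g/L, followed by 900.4, 1003.2 and 1026.4 at 5 g/L, where all arrays lay below those of the other groups. Its slope was -0.13 ± 0.05 log2 (limma adjusted p = 0.0876). Among the array's control probe sets stands another for RIP1, which was not part of the fit, and it differed in pattern. That one read 892, 829.5 and 943.4 at 0.75 g/L, then 372.3, 594.3 and 456.2 at 1 g/L, without overlap. The difference on it was -0.93 log2 against 0.00 on the tested probe set, and with 3 against 3 arrays an exact two-sided permutation test gave p = 0.1, the smallest it can give. From 1 to 5 g/L the probe sets went opposite ways, by 0.27 log2 on the control one and -0.36 on the tested one. Both were lower at 5 than at 0.75 g/L, by 0.66 and 0.36. On the control one the 5 g/L arrays, at 512.2 to 637.6, overlapped those at 1 g/L. RIP1 is therefore uncertain in every comparison with 1 g/L, and its lowest level at 5 g/L and its slope hold for the tested probe set only.

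QCR8 was at or near background. Its tested probe set ranged from 3.7 to 22.5 over the 15 arrays and its other one from 0.1 to 3.9, so no level or change of QCR8 can be read from them. QCR6, QCR7, QCR9 and QCR10, the remaining small subunits, and CYT1, cytochrome c1, had means that ranged 1.18-fold, 1.30-fold, 1.23-fold, 1.30-fold and 1.35-fold over the concentrations. None of these 5 passed any test as deposited.

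CYC1, the main isoform of cytochrome c, gave 1750.4, 1570.3 and 1673.3 at 0.75 g/L, 1274.5, 2100.8 and 1359.3 at 1 g/L, followed by 1075.8, 1968.7 and 2206.6 at 1.5 g/L. It gave 1657.8, 1760.7 and 1380.5 at 3 g/L, then 1738.3, 1390.6 and 1223.5 at 5 g/L. All 5 groups overlapped, and the arrays of the 1.5 g/L group alone spanned more than the differences between group means. No difference among the concentrations was found for CYC1 (limma F-test, adjusted p = 0.922), and its 5 against 0.75 g/L interval ran from -0.77 to 0.35 log2.

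In complex IV, cytochrome c oxidase, none of the 8 nuclear subunits measured passed the slope or the F-test as deposited. Comparisons of 2 concentrations passed in both directions. COX5A, the aerobic form of a subunit with isoforms, gave 488.6, 549.1 and 454.2 at 0.75 g/L, followed by 473.1, 544.8 and 692 at 1 g/L. At 1.5 g/L it gave 694.6, 757 and 738.2. It gave 643.9, 663.7 and 580.1 at 3 g/L, then 608.9, 702.1 and 683.8 at 5 g/L. All 9 arrays from 1.5 g/L up were above the 3 at 0.75 g/L, and the 1 g/L arrays overlapped both. COX5A was 1.34-fold higher at 5 than at 0.75 g/L (log2 0.42 ± 0.16), just past the threshold (limma adjusted p = 0.0487). It did not pass in most settings that left out an array (adjusted p up to 0.149) or after median scaling (log2 0.15, adjusted p = 0.521). Nor did it pass with the replicate number (0.0609) or the run (0.286) as a block. A floor at the 25th percentile (0.0528) and a fit of only the 6 arrays compared (0.0579) lost the call as well.

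COX9, a small subunit, gave 629.6, 735.9 and 525.6 at 0.75 g/L, against 928.6, 1003.5 and 880.7 at 5 g/L, without overlap. The groups between ran from 591.6 to 957.7, and those at 1.5 and 3 g/L overlapped both ends while that at 1 g/L lay below 5 g/L. It was 1.50-fold higher at 5 g/L (log2 0.58 ± 0.20; limma adjusted p = 0.0343). The call did not pass without 0.75 g/L replicate 1 or 3 or without any 5 g/L array (adjusted p 0.0569 to 0.132) or after median scaling (0.246), and with the run as a block the difference was -0.02 (adjusted p = 0.978).

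COX7, another small subunit, was lower at 1 g/L. Its signals were 1996, 1731.4 and 1844.4 at 0.75 g/L, then 1539.5, 1101.1 and 1045.5 at 1 g/L. From 1.5 to 5 g/L they ran from 1075.1 to 1644.2. All 12 arrays from 1 g/L up lay below the lowest at 0.75 g/L. The drop of 1.53-fold to 1 g/L (log2 -0.62 ± 0.20; limma adjusted p = 0.0236) did not pass without 0.75 g/L replicate 1 (adjusted p = 0.077) or 3 (0.0529), or 1 g/L replicate 2 (0.076) or 3 (0.089).

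COX12, a subunit facing the intermembrane space, lay between 1494.3 and 2237.4 over the 15 arrays, and its 0.75 g/L arrays lay above those at 3 and 5 g/L. COX4, COX6, COX8 and COX13 had group means that ranged 1.09-fold, 1.16-fold, 1.18-fold and 1.16-fold. COX4 had the narrowest range of the 37 genes, from 674 to 803.1 over all arrays, and none of these 5 passed a test as deposited.

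As deposited, none of the 12 ATP synthase genes passed in any comparison by limma (0 to 1 at an unadjusted p below 0.05 in each), and their group means ranged at most 1.47-fold, in ATP7. Among the catalytic F1 genes, ATP2 (beta) gave 961.8, 939.1 and 1126.2 at 0.75 g/L, followed by 441.3, 961.5 and 860.7 at 1 g/L. Its later arrays ran from 630.9 to 967.6, and those at 3 and 5 g/L lay below the 0.75 g/L group, which the others overlapped. ATP2 was 1.41-fold lower at 1 g/L (log2 -0.49 ± 0.25; limma adjusted p = 0.139), but 0.14 log2 lower without 1 g/L replicate 1, its lowest array. ATP1 (alpha), ATP3 (gamma) and ATP16 (delta) ranged 1.12-fold, 1.16-fold and 1.15-fold.

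ATP15 (epsilon) varied little between arrays of a group. It gave 895.7, 860.9 and 800.1 at 0.75 g/L, 802.7, 780.7 and 758.4 at 1 g/L, then 855.6, 909.6 and 885.1 at 1.5 g/L. It gave 802.9, 743 and 731.8 at 3 g/L, followed by 684.1, 737.3 and 700.2 at 5 g/L. All arrays at 5 g/L lay below those at 0.75, 1 and 1.5 g/L, and 5 against 0.75 g/L was 1.20-fold lower without passing (limma adjusted p = 0.0954). ATP5, the stalk protein that holds F1, lay between 128.3 and 260.7, with its 2 extremes both at 5 g/L. ATP7, another stalk subunit, lay between 147.4 and 337.3, with its lowest array at 1 g/L. ATP20, a membrane subunit tied to dimers of the enzyme, lay between 53.4 and 89.9. ATP4, ATP14, ATP17 and ATP18, the other members of stalk and membrane part, ranged 1.14-fold, 1.36-fold, 1.19-fold and 1.22-fold, and both probe sets of ATP14 gave differences that did not pass.

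The structural genes were then set beside 9 lists of other mitochondrial genes, 110 of them tested, for what these subunits need to be made and joined. Of the 110, 49 fell with mannose and 2 rose, where 9.34% of all probe sets fell and 14.3% rose, and their median slope was -0.18 log2 per doubling. Relative to all probe sets their median lay 0.21 lower as deposited and 0.22 lower after quantile normalization. With the run as a block 33 fell and 0 rose, and without the 0.75 g/L arrays 32 fell and 4 rose. Leaving out any single array left between 39 and 51 falling. The lists hold different genes from the 37, and the difference between the groups of genes was not tested.

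Assembly factors, which build the complexes but are no part of them, made up most of these. In the 3 assembly lists 30 of 53 fell and 0 rose. Of the 24 for complex IV 14 fell, with a median of -0.27. SCO1, which delivers copper to the oxidase, went from 140 ± 13.6 (SD, n = 3) at 0.75 g/L over 131 ± 9.82, 98.8 ± 4.84 and 58.5 ± 8.30 to 59.7 ± 8.60 at 5 g/L, and its slope was -0.52 ± 0.06 (limma adjusted p = 2.66e-05). MSS51, the translational activator of mitochondrial COX1, went from 364 ± 21.9 to 161 ± 32.4 (adjusted p = 3.24e-05), and COX18, which helps insert COX2 into the membrane, from 269 ± 10.6 to 125 ± 22.8 (adjusted p = 0.000155). Each of the 3 passed in 27 of 27 other settings.

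Of the 16 assembly genes for complexes II and III and cytochrome c 10 fell, with a median of -0.22. CBP6, needed for cytochrome b translation, went from 92.4 ± 16.0 to 36.4 ± 3.16 (limma adjusted p = 0.000297). SDH7, an assembly factor of succinate dehydrogenase, went from 184 ± 6.93 to 75.9 ± 7.65 (adjusted p = 0.000307), and CBP4, an assembly factor of complex III, from 96.6 ± 15.3 to 42.5 ± 8.87 (adjusted p = 0.00294). Of 13 for assembly and regulation of the ATP synthase 6 fell, with a median of -0.10. They include STF2, from 1106 ± 361 to 275 ± 16.2 (adjusted p = 0.000355), the ATPase inhibitor INH1, from 610 ± 61.8 to 343 ± 67.8 (adjusted p = 0.00318), and ATP11, a chaperone of F1, from 325 ± 32.6 to 216 ± 13.5 (adjusted p = 0.0046). INH1 did not pass with the run as a block (adjusted p = 0.163) or without the uncompleted runs (0.103).

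Genes of cofactor synthesis fell too. Of 10 coenzyme Q genes 7 fell, with a median of -0.38, led by COQ7, a hydroxylase of the pathway, from 47.6 ± 4.0 at 0.75 g/L to 12.1 ± 2.84, at background, at 5 g/L (slope -0.73 ± 0.07; limma adjusted p = 2.12e-06). COQ6, another hydroxylase, went from 117 ± 2.01 to 40.4 ± 4.71, and COQ5, a methyltransferase, from 1749 ± 241 to 810 ± 100. Of 10 heme genes 6 fell, with a median of -0.27. HEM15, ferrochelatase, went from 252 ± 26.2 to 86.0 ± 22 (adjusted p = 6.46e-05), COX15, of heme A synthesis, from 939 ± 57 to 328 ± 46.5 (adjusted p = 0.000419), and HEM2 from 168 ± 19.1 to 106 ± 12.6 (adjusted p = 0.00296).

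Within run A, where 3 g/L replicate 1 can be set against the 0.75 g/L arrays, 52 of the 53 assembly genes were lower at 3 g/L, with a median of -0.78 log2, and 31 of the 37 structural genes, with a median of -0.19, while all probe sets had a median of 0.08. In run C, 5 against 1.5 g/L, 43 of the 53 were lower, with a median of -0.35, and 15 of the 37, with a median of 0.03. In run B, 5 against 3 g/L, the medians were -0.01 and 0.05. Each of these sets rests on 1 to 3 arrays a side.

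**Figure D4:**
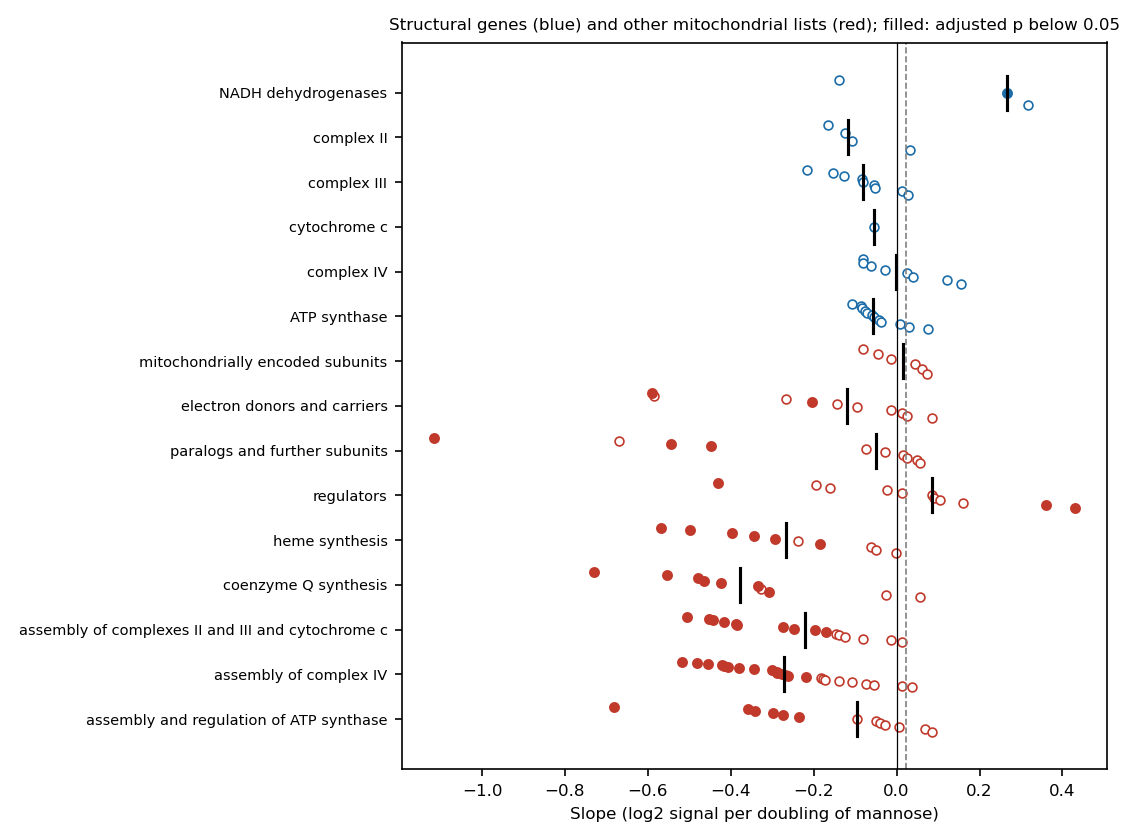
Each point is the slope of a gene in log2 signal per doubling of mannose (x axis) over 15 arrays, for the 37 structural genes by complex (blue) and 110 genes of 9 other mitochondrial lists (red); filled points passed an adjusted p below 0.05, black bars are medians and the dashed line is the median of all probe sets, 0.02. The blue points lie near 0 with NDE1 filled, and many red points of the assembly, heme and coenzyme Q lists lie to the left and are filled.

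Some isoforms and paralogs of the members differed between concentrations. CYC7, the other isoform of cytochrome c, known to be used at low oxygen, gave 397.6, 425.6 and 317.7 at 0.75 g/L, then 56.9, 53.1 and 50.8 at 1 g/L. It stayed between 28.7 and 74.4 at higher concentrations. CYC7 was 7.05-fold lower at 1 g/L (log2 -2.82 ± 0.18; limma adjusted p = 6.25e-08), where CYC1 was 1.08-fold lower (adjusted p = 0.763). COX5B, the isoform of COX5A known from low oxygen, went from 62.0 ± 7.56 (SD, n = 3) at 0.75 g/L to 37.9 ± 4.41 at 1 g/L, ended at 22.2 ± 2.62 at 5 g/L, and fell by 0.54 ± 0.09 log2 per doubling (adjusted p = 0.000349), while the slope of COX5A was 0.12 ± 0.06 (adjusted p = 0.172).

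SHH3, a homologue of SDH3, gave 46.3, 49.6 and 46.3 at 0.75 g/L, followed by 7.3, 7.6 and 12.6 at 1 g/L, all under background, so it was at least 3.51-fold lower there (limma adjusted p = 4.8e-07). At 5 g/L it was back at 33.2, 33.9 and 36. SDH3 was 1.31-fold lower at 1 g/L (adjusted p = 0.113). CYC7 and SHH3 are named after their values were seen, and the differences between a member and its paralog were not tested. In the list of paralogs and further subunits 3 of 10 fell in the trend, COX5B, RCF1 and COX26, and at 1 against 0.75 g/L 6 were lower. RCF1, a factor of supercomplexes, went from 760 ± 83.3 to 337 ± 77.4, and COX26, which did not pass with the run as a block (adjusted p = 0.0577), from 128 ± 23.6 to 14 ± 2.95, close to background.

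**Figure D5:**
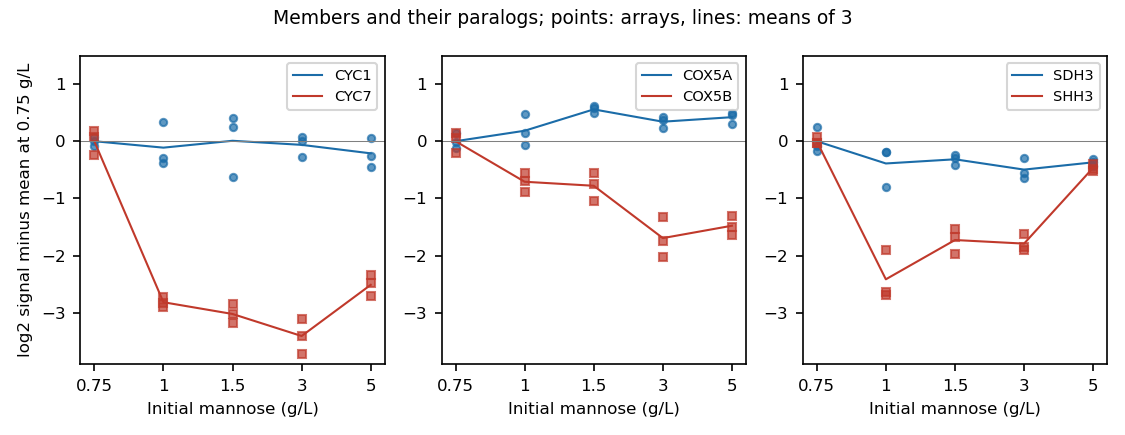
Log2 signal minus the mean at 0.75 g/L (y axis) against initial mannose in g/L (x axis) for 3 members (blue circles) and a paralog of each (red squares), with points for arrays and lines through means of 3. CYC7 drops by 2.82 from 0.75 to 1 g/L and COX5B ends lower than it began, while CYC1, COX5A and SDH3 stay within 1 of the start. SHH3 at 1 g/L lies under background, so its plotted depth there is not measured and only the bound of at least 3.51-fold holds.

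Other lists were mixed. Of 10 electron donors and carriers 2 fell, CYB2, the L-lactate dehydrogenase that feeds cytochrome c, from 1786 ± 238 to 431 ± 110 (limma adjusted p = 0.00737), and DLD1, a D-lactate dehydrogenase, from 654 ± 67.1 to 465 ± 10.9 (adjusted p = 0.0154). CYB2 did not pass without the 0.75 g/L arrays (adjusted p = 0.115) or without the uncompleted runs (0.381). At 1 g/L it was already at 607 ± 162. OM45, an outer membrane protein, went from 767 ± 130 to 121 ± 25.6 over the same step (adjusted p = 1.61e-06), and its slope did not pass (adjusted p = 0.089). Of the 6 tested mitochondrially encoded subunits 0 passed in the trend by limma (0 unadjusted) or in any other comparison (0 to 2 unadjusted, the 2 from 1.5 to 3 g/L), among them COX1, at 1152 ± 132 and 1071 ± 12.4 at the ends, OLI1, at 1993 ± 98.6 and 1854 ± 110, and ATP6, near background throughout. COX2 and COB, at mean signals of 7.85 and 16.5 over the arrays, lay near background as well. Within run A all 6 were higher on replicate 1 at 3 g/L, with a median of 0.67 log2. The values of ATP6, COB and COX2 there, 1.44, 0.97 and 0.65, are uncertain because these genes are so dim. COX1, COX3 and OLI1 were higher by 0.59, 0.35 and 0.69.

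Among 11 regulators RTG3, of mitochondrial retrograde signalling, rose from 50.5 ± 4.70 to 103 ± 5.84 (limma adjusted p = 0.0017), and ROX1, the repressor of low-oxygen genes, from 21.8 ± 5.90 to 37.4 ± 5.94 (adjusted p = 0.00728). ROX1 did not climb steadily, with its lowest mean at 1 g/L and its highest at 3 g/L, a range of 2.55-fold. The ROX1 call for 5 against 0.75 g/L was lost in several settings, such as quantile normalization (limma adjusted p = 0.179). MTH1, of glucose sensing, fell in the trend to near background, from 20.8 ± 4.25 to 13.3 ± 4.48 (adjusted p = 0.0169), but not steadily. Its mean was highest at 1 g/L, the only concentration of run D, and lowest at 3 g/L, a range of 3.00-fold. MTH1 was 0.73 log2 higher at 1 than at 0.75 g/L, a call lost in many settings, such as quantile normalization (limma adjusted p = 0.15). The slopes of RTG3, ROX1 and MTH1 did not pass with the run as a block (adjusted p 0.118 to 0.706). HAP4, named after its values were seen, gave 214.4, 175.9 and 271.1 at 0.75 g/L, 192.1, 233 and 141.8 at 1 g/L, then 135.6, 131.5 and 192.7 at 1.5 g/L. At 3 g/L it gave 229.2, 206.2 and 196.8 and at 5 g/L 248.4, 243.7 and 220.4. Its groups overlapped apart from 1.5 against 3 and 5 g/L, and HAP4 did not pass for any difference (adjusted p = 0.117). Whether any of these levels bears on the structural genes was not tested.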

How the data were processed

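The deposited table gives each of 9335 probe sets of 15 arrays a linear signal intensity, which the authors had computed by a method not recorded in the labels. The 2% trimmed means lay between 100.09 and 100.13, so signals were used as deposited. Values at or below the 10th percentile (1.5, 13754 values) were set to it, log2 was taken, 60 control probe sets and those below the 25th percentile of mean log2 signal were left out, and 6956 remained. limma 3.58.1 in R 4.3.3 (lmFit, eBayes) was fitted to all arrays, with Benjamini-Hochberg adjustment over all 6956 and a threshold of 0.05. Tests were a slope on log2 mannose, an F-test and 6 contrasts, and the code was tested on simulated data.

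For a gene with several probe sets the brightest was used. Arrays are given for the members of each complex with the smallest adjusted p in the F-test and with the largest rise and fall in the trend, and from other lists up to 3 genes that changed most clearly in the trend are named. 13 control probe sets, of mouse or antisense sequence, set the background at 13.5, their 95th percentile. Where all 3 arrays of a group were under it, folds are given as bounds. The members, lists and this rule were chosen with earlier results of these data known. Replicate numbers did not pair arrays: 4 of 30 same-number correlations exceeded 0.1. The number of arrays limits the precision.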

Additional observations from a re-analysis of the deposited data

How the results depend on the processing

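The counts were recomputed under 28 other settings, 15 of which left out 1 array. The counts for 1.5 against 1 and 5 against 3 g/L stayed at 0 in all that were run. Quantile normalization gave 2 members rising in the trend. Median scaling gave 6 members falling in the trend, 11 with any difference, 14 for 1 against 0.75 g/L and 20 for 5 against 0.75 g/L. It turned the trend of all probe sets from 996 rising and 650 falling to 592 and 1143, and quantile normalization to 774 and 886. A filter at the 50th percentile and an intensity trend in eBayes each gave 1 member for 3 against 1.5 g/L. A fixed block for the run gave 2 for 5 against 0.75 g/L and 0 other mitochondrial genes rising, and turned COX9 there to -0.015 log2. Without arrays of uncompleted runs 3 members rose, 1 had any difference, and 5 of the other genes rose and 32 fell. Without the 0.75 g/L arrays 3 members rose, and 4 of the other genes rose and 32 fell. With only the 6 arrays compared 1 member passed for 5 against 1 g/L. For these results the cause was not tested.

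Leaving out 1 array gave 1 to 2 members rising and 0 to 0 falling in the trend, 4 to 9 with any difference, 4 to 8 for 1 against 0.75 g/L, 0 to 1 for 3 against 1.5 g/L, 2 to 6 for 5 against 0.75 g/L and 1 to 4 for 5 against 1 g/L. Among the other genes 2 to 2 rose and 39 to 51 fell, and 23 to 32 were lower at 1 than at 0.75 g/L. The replicate number as a block gave 1 member rising, 5 with any difference and 45 other genes falling. With it QCR2 did not pass for any difference (adjusted p = 0.0583) and 4 of 15 arrays correlated best with their own number. A fixed run block for comparisons with 1 g/L, comparisons with 0.75 g/L without the uncompleted runs, and motifs in promoters were not run. The settings for the other genes, the background level and the values within runs were added after the data had been seen.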
